A study of Saccharomyces cerevisiae with 4 samples.

Results

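Ribosome footprints of vps35 deletion yeast carrying a TIF4631 plasmid were compared directly with those of wild-type yeast carrying a control plasmid, so that both perturbations were present on one side and neither on the other. The comparison used 2 of the 4 libraries of the series, 1 per side, and the 4997 of 5441 open reading frames (ORFs) that had at least 200 footprint counts summed over the 4 libraries. The deletion group with TIF4631 was Saccharomyces cerevisiae strain Y7092 with the vps35::natMX allele and the plasmid pAG416GAL-TIF4631. A deletion control library, vps35::natMX with pAG416GAL-ccdB, was set beside it to show where each value stood with the deletion alone. The wild-type control was wild-type Y7092 with pAG416GAL-ccdB. Plasmid genes were driven by a galactose-inducible promoter and induced for 2 h, and whole cell lysates were used in each group. Y7092 is a haploid alpha-mating laboratory strain that lacks several biosynthetic genes, and a library stands for 1 culture of it, so no value below has a replicate behind it. The remaining library, labelled wild type with the TIF4631 plasmid, was left out of the comparison.

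VPS35 encodes the cargo-recognition subunit of retromer, the coat complex that returns sorting receptors and other membrane proteins from endosomes to the Golgi. TIF4631 encodes eIF4G1, the scaffold of the eIF4F complex, which joins the cap-binding protein eIF4E, the helicase eIF4A and the poly(A)-binding protein when a ribosome is recruited to an mRNA. Ribosome profiling sequences the mRNA fragments that ribosomes shield from nuclease. Without a matched measurement of mRNA, a footprint level holds mRNA abundance and translation together. In lysates of whole cultures, a change in every cell and a larger change in some of the cells cannot be told apart.

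The deletion library with TIF4631 held 16341045 counts, the deletion control library 11240681 and the wild-type control library 17669055, with medians of 809, 552 and 860 counts per ORF in that order. Levels are given as CPM, counts scaled to a common library size, after TMM scaling, and a log2 ratio is the deletion library with TIF4631 over the wild-type control unless another pair is named. The brackets after a ratio hold a 95% interval that covers counting error only. The 2 libraries differed by far more than sampling noise, with a chi-square per degree of freedom of 149.9 over ORFs. Across ORFs the log2 ratios had a robust SD of 0.309, well above their median counting SD of 0.0667, and 84.9% of ORFs lay within 0.5 of 0. ORFs were called by a rule of size: higher where the log2 ratio reached 1, lower where it reached -1, and only where the counting interval left out 0. These calls describe 2 libraries and carry no test. Markers of mating type matched the strain. STE3, SAG1 and MF(ALPHA)2, genes of alpha cells, were measured at 411, 593 and 57.0 CPM in the deletion library with TIF4631 and at 402, 383 and 81.1 CPM in the wild-type control. The 6 a-specific genes together held 12.9 and 8.0 CPM in the same order of libraries.

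The targets of the perturbations were checked first. In the sacCer3 genome VPS35 (YJL154C) spans 131101 to 133935 on chromosome X. It had 10 counts in the deletion library with TIF4631 and 9 in the deletion control library, against 2187 in the wild-type control. Its log2 ratio was -7.62 (-8.76 to -6.81). TIF4631 (YGR162W, chromosome VII, 824059 to 826917) had 103723 counts, or 6217 CPM, in the deletion library with TIF4631 and 4948 counts, or 435 CPM, in the deletion control library, against 8010 counts, or 455 CPM, in the wild-type control. It was 13.7-fold higher, a log2 ratio of 3.77 (3.74 to 3.81), and took 0.635% of all counts in the deletion library with TIF4631 against 0.0453% in the wild-type control. Footprints from the plasmid copy and from the chromosomal copy of TIF4631 cannot be told apart. URA3, the selectable marker of the pAG416 plasmids, stood at 118 CPM in the deletion library with TIF4631 and 732 CPM in the deletion control library, against 855 CPM in the wild-type control, a log2 ratio of -2.86 (-2.93 to -2.79). LEU2 and MET17, which Y7092 lacks, had 0 counts in these 3 libraries, which allows at most 0.180, 0.264 and 0.170 CPM in the order above.

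The GAL genes, which carry the induction, were lower in the deletion library with TIF4631. GAL1, galactokinase, stood at 20612 CPM there and 27400 CPM in the deletion control library, against 27659 CPM in the wild-type control, a log2 ratio of -0.42. GAL10 was at -0.59, GAL7 at -0.47 and the aldo-keto reductase GCY1 at -0.81. Of the 11 measured members of the galactose list, 9 were below 0 and 2 above it beyond counting error, with none past the rule of size. Of all ORFs, 33.0% lay beyond counting error in each direction. Whether less induction accounts for any result below was not tested.

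In all, 71 of 4997 ORFs, or 1.42%, were called higher and 81, or 1.62%, were called lower. Beyond counting error alone, 1649 ORFs (33.0%) lay above 0 and 1650 (33.0%) below it. Apart from TIF4631, the ORFs called higher held 1.85% of all counts in the deletion library with TIF4631 and 0.816% in the deletion control library, against 0.572% in the wild-type control. The ORFs called lower held 0.713% and 1.51%, against 2.10%, in the same order. These shares follow from how the ORFs were called and are given as a description. At the edge of the filter, YPL034W and YOR062C, each with a sum of 200 counts, stood at log2 ratios of 0.79 and 0.34, while ATG16, with 199 counts, and PET18, with 197, were left out at 0.64 and 0.14.

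**Figure D1:**
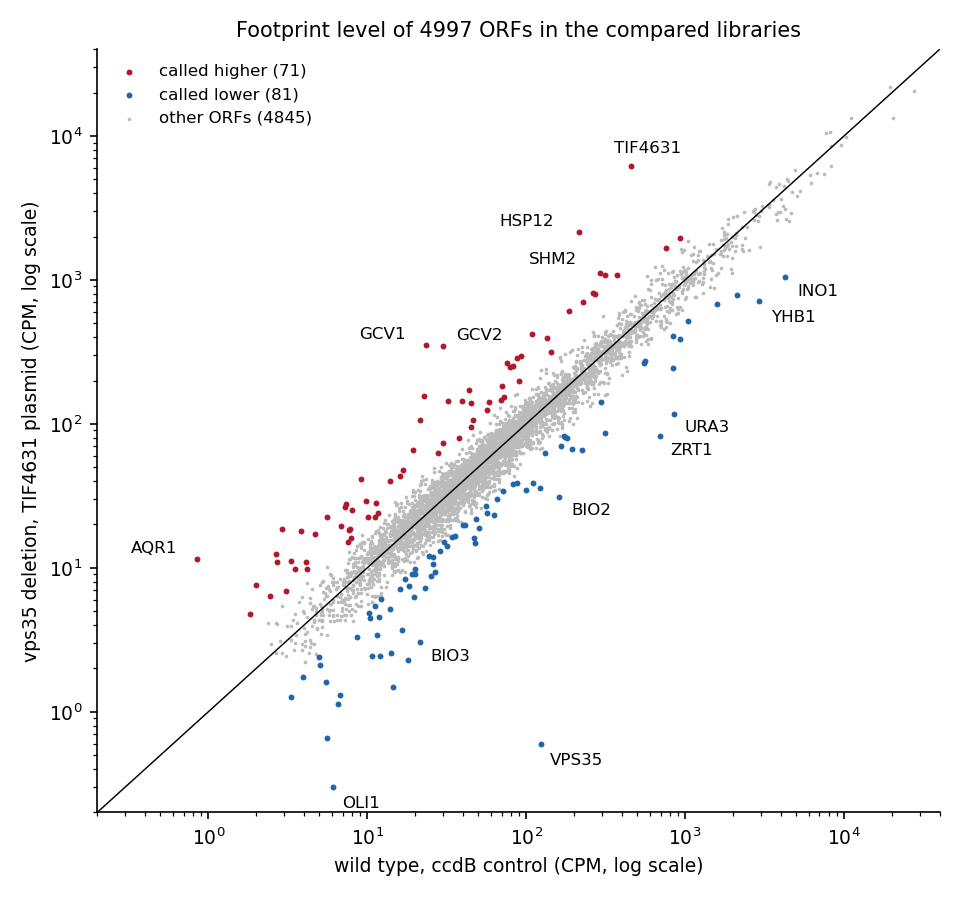
Footprint level of each ORF past the filter in the deletion library with TIF4631 (vertical axis) against the wild-type control library (horizontal axis), both in CPM on log scales. The line marks equal levels, red points are the 71 ORFs called higher and blue points the 81 called lower, and TIF4631 and VPS35 lie farthest from the line among ORFs of their level.

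Within the eIF4F complex, TIF4631 was far out of proportion to TIF4632 and CDC33. No value of the helicase eIF4A is given here. On the authors' deposited RPKM scale, which accounts for ORF length, TIF4631 stood at 2232 in the deletion library with TIF4631 and 155 in the deletion control library, against 159 in the wild-type control. TIF4632, which encodes the second eIF4G of yeast, stood at 47.4 and 56.3, against 59.2, and CDC33, the cap-binding eIF4E, at 718 and 702, against 741. The ratio of TIF4631 to TIF4632 was therefore 47.1 in the deletion library with TIF4631 and 2.75 in the deletion control library, against 2.69 in the wild-type control. The ratio of TIF4631 to CDC33 was 3.11 and 0.221, against 0.215. Per length, eIF4G1 footprints thus exceeded those of eIF4E in the deletion library with TIF4631 and were below them in both control libraries.

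Among the 14 measured members of the eIF4F list, of 16 in the list, TIF4631 was the only one called. PAB1, the poly(A)-binding protein that eIF4G contacts, had 874 CPM in the deletion library with TIF4631 and 1469 CPM in the deletion control library, against 1515 CPM in the wild-type control, a log2 ratio of -0.79 that missed the rule of size. PBP1, which binds Pab1, was at -0.46, the eIF4E-binding repressor CAF20 at -0.32, TIF4632 at -0.36 and CDC33 at -0.08. The 22 other initiation factors had 0 called members and log2 ratios between -0.41, for SUI1, the start-site fidelity factor eIF1, and 0.35, for RLI1, the recycling ATPase. Elongation factor eEF3, encoded by YEF3, was at -0.43. The 67 measured genes of cytosolic ribosomal proteins, of 138 in the list, lay between -0.32 and 0.62 with a median of 0.03. The 77 ribosome biogenesis factors had a median of 0.17. Beyond counting error 47 of these factors were above 0 and 9 below, against 33.0% of all ORFs each way. The nucleolar protein NSR1 stood apart from that list at -0.83.

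The remaining retromer genes were close to their wild-type level. VPS35 was the only called member of the 29 measured retromer and endosome recycling genes, and the other 28 lay between -0.37 and 0.43. Of its partner subunits, PEP8, also known as VPS26, stood at -0.07, VPS5 at 0.02, VPS17 at 0.12 and VPS29 at 0.28. PEP1, the sorting receptor that retromer recycles and that is also called VPS10, had 296 CPM in the deletion library with TIF4631 and 417 CPM in the deletion control library, against 383 CPM in the wild-type control, at -0.37. The 51 measured genes of endosomal and vacuolar sorting, 33 of autophagy and 22 of the vacuolar proton pump had 0 called members, with medians of 0.13, 0.13 and 0.04. Among vacuolar hydrolases and their regulators, PAI3, an inhibitor of proteinase A, was called higher at 1.15 (0.89 to 1.42), and among counterparts of other Parkinson's disease genes the DJ-1 family chaperone HSP31 was called higher at 1.14 (1.05 to 1.22).

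Genes of glycine breakdown were much higher, and GCV1 held the highest ratio of all ORFs past the filter. GCV1, GCV2 and GCV3 encode the T, P and H proteins of the mitochondrial glycine decarboxylase, which splits glycine and passes a carbon unit to folate. GCV1 had 352 CPM in the deletion library with TIF4631 and 30.5 CPM in the deletion control library, against 23.4 CPM in the wild-type control, a log2 ratio of 3.91 (3.76 to 4.05). GCV2 had 348 and 50.6 CPM in the deletion libraries with and without TIF4631, against 30.1 CPM in the wild-type control, a log2 ratio of 3.53 (3.40 to 3.66). GCV3 was at 265 and 101 CPM, against 76.0 CPM, a log2 ratio of 1.80. All 3 were highest in the deletion library with TIF4631 and lowest in the wild-type control. SHM2, the cytosolic serine hydroxymethyltransferase that interconverts serine and glycine, stood at 1125 and 314 CPM, against 290 CPM, a log2 ratio of 1.96.

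CHA1, the catabolic serine and threonine deaminase, did not follow that order. It had 185 counts, or 11.1 CPM, in the deletion library with TIF4631, 16 counts, or 1.41 CPM, in the deletion control library and 58 counts, or 3.29 CPM, in the wild-type control, so that the deletion control library was lowest and the log2 ratio 1.74 (1.32 to 2.20). The fourth subunit of the decarboxylase, LPD1, which other dehydrogenase complexes share, was at -0.45, the mitochondrial serine hydroxymethyltransferase SHM1 at -0.88, and AGX1, which makes glycine from glyoxylate, was called lower at -1.06 (-1.17 to -0.96). In the list of 21 glycine and one-carbon genes, 5 were called higher and 1 lower, against 1.42% and 1.62% of all ORFs. Its median was -0.04. The purine gene ADE17, which uses folate-bound carbon, was at 0.86 and MTD1, a cytoplasmic folate dehydrogenase, at 0.48, neither called. General amino acid synthesis under the activator Gcn4 had a median of 0.07 over 56 genes, and among its called members were HIS5, higher at 1.07, and LEU1, lower at -1.01.

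Promoter stretches of the 3 leading genes of this group are printed because each holds the letters TGACTC, on either strand, of the Gcn4 binding site. Each runs from 250 to 101 bases before the ORF in the sacCer3 (R64) genome, read 5′ to 3′ on the coding strand, with the match in capitals.
GCV1, chrIV:485466-485615, minus strand: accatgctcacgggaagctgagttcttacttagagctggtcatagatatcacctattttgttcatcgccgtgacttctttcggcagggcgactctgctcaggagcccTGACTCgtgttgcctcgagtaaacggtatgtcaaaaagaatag
GCV2, chrXIII:637250-637399, plus strand: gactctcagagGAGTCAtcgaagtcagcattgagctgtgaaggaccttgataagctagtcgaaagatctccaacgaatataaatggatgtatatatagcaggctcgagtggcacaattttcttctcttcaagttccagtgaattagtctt
SHM2, chrXII:259502-259651, minus strand: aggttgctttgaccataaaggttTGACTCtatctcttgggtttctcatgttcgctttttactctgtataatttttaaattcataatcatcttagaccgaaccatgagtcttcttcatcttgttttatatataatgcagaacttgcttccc
The match is on the coding strand in GCV1 and SHM2 and on the other strand in GCV2. The same letters stood in 12.7% of the promoters of ORFs called higher, in 13.3% of those called lower and in 8.64% of the 4987 nuclear promoters past the filter, over a window from 250 bases before to 50 after the ORF start.

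General stress genes had more called members than any other list. Of 61 measured targets of Msn2 and Msn4, the activators of the general stress response, 17 were called higher and 2 lower. Over all ORFs these shares were 1.42% and 1.62%. The list median was 0.60 against 0.01 for all ORFs. Beyond counting error, 47 members were above 0 and 9 below, against 33.0% of all ORFs in each direction. HSP12, a small membrane-protective heat shock protein, had 2140 CPM in the deletion library with TIF4631 and 511 CPM in the deletion control library, against 214 CPM in the wild-type control, a log2 ratio of 3.32 (3.27 to 3.37). TKL2, a transketolase of the pentose phosphate pathway, had 156 and 61.5 CPM, against 22.9 CPM, at 2.76 (2.61 to 2.92). Both were highest with TIF4631 and intermediate in the deletion control library.

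The stress protein DDR2 had 422 CPM in the deletion library with TIF4631 and 140 CPM in the deletion control library, against 109 CPM in the wild-type control, at 1.95 (1.88 to 2.02). CTT1, the cytosolic catalase, had 172 and 84.7 CPM, against 43.4 CPM, at 1.99. SIP18, a desiccation-protective hydrophilin, had 18.6 and 7.82 CPM, against 2.89 CPM, at 2.67 (2.26 to 3.14). PHM7 was at 2.30, SOL4, a 6-phosphogluconolactonase homologue, at 1.87, MSC1 at 1.71 and RTN2 at 1.65. The group was not uniform. HSP30, a plasma membrane heat shock protein, was called lower at -1.54 (-1.64 to -1.45), with 66.9 CPM in the deletion library with TIF4631 and 62.6 CPM in the deletion control library, against 195 CPM in the wild-type control. The kinase gene MRK1 was called lower at -1.49, GSY1, a glycogen synthase, was at -0.73, and the disaggregase HSP104 was at 0.13. Of 31 chaperone genes linked to the heat shock factor Hsf1, none was called, and the median was -0.11.

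Promoters of the 2 stress genes with the highest CPM among the 6 named from that list are shown for their stress response elements, the letters AGGGG on either strand, in capitals. The stretches cover the same positions as above.
HSP12, chrVI:107006-107155, plus strand: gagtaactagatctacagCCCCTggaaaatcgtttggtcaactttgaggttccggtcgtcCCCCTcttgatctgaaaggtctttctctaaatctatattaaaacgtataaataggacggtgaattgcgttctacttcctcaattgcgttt
DDR2, chrXV:231856-232005, minus strand: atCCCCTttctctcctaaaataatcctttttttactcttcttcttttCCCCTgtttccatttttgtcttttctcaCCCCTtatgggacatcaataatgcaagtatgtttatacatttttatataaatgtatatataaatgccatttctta
HSP12 held 2 matches and DDR2 held 3. Of the 71 promoters of ORFs called higher, 29 (40.8%) held at least 1 match in the window, against 19 of 75 (25.3%) for nuclear ORFs called lower and 21.9% of all promoters past the filter. A match describes the letters of the window and no binding was measured.

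Cell wall genes were also among the higher ORFs. Of 49 measured genes of the cell wall integrity pathway and of wall proteins, 5 were called higher and 0 lower. Over all ORFs these shares were 1.42% and 1.62%. The list median was 0.19. PRM5 had 145 CPM in the deletion library with TIF4631 and 79.9 CPM in the deletion control library, against 32.3 CPM in the wild-type control, at 2.16 (2.03 to 2.30). SLT2, the kinase at the end of that pathway, had 185 and 130 CPM, against 70.0 CPM, at 1.40. The wall mannoprotein CWP1 had 697 and 532 CPM, against 228 CPM, at 1.61, and SRL3 and CRG1 were at 2.17 and 1.77. Mating genes held 2 called members of 26, both higher, against 1.42% of all ORFs. AGA1, the anchor subunit of a-agglutinin, had 296 CPM in the deletion library with TIF4631 and 69.8 CPM in the deletion control library, against 92.6 CPM in the wild-type control, at 1.67 (1.59 to 1.76), and SST2, which shuts off the pheromone-receptor G protein, was at 1.07. FUS1, a gene of cell fusion, was at 0.86 and not called.

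Some genes for using acetate and fatty acids, and for breaking down aromatic amino acids, were called higher as well. In the list of 28 genes of the glyoxylate shunt, gluconeogenesis and fat oxidation, 6 were called higher and 1 lower. Over all ORFs these shares were 1.42% and 1.62%. The list median was only -0.02, with 10 members above 0 and 10 below beyond counting error, against 33.0% of all ORFs each way. POT1 and FOX2, enzymes of peroxisomal beta-oxidation, were at 1.86 and 1.44, PCK1, which commits carbon to gluconeogenesis, was at 1.64, the cytosolic malate dehydrogenase MDH2 at 1.53 with 392 and 207 CPM, against 136 CPM, and the acetyl-CoA synthetase ACS1 at 1.16. The lactate transporter JEN1 went the other way at -1.18 (-1.27 to -1.08). ICL1, the isocitrate lyase that defines the glyoxylate shunt, was at 0.13 and FBP1 at -0.11. In the list of 10 measured genes of aromatic amino acid breakdown and the Ehrlich pathway, 3 were called higher and 1 lower. These counts stand against the same shares of all ORFs, and the list median was 0.18. ARO9 and ARO10, a transaminase and a decarboxylase of that breakdown, were at 1.55 and 1.61, with ARO10 at 806 and 495 CPM, against 264 CPM. YPL088W had 303 and 124 counts, against 67 counts, at 2.25 (1.87 to 2.66). The alcohol dehydrogenase ADH5 was the lower call, at -1.13 (-1.31 to -0.95).

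Called ORFs were also found outside these groups. NCE103, the carbonic anhydrase, which belonged to none of the lists, had 1082 and 583 CPM, against 315 CPM, at 1.78 (1.74 to 1.83). AQR1, an exporter of amino acids and short-chain acids, had only 191, 25 and 15 counts in the same order of libraries, so its ratio of 3.70 spanned 2.99 to 4.61. AQY3, of the aquaporin family, had 207 and 57 counts, against 47 counts, at 2.20 (1.75 to 2.71). GPP1, a glycerol phosphatase, was at 1.54 with 1085 and 567 CPM, against 374 CPM, and the polyamine exporter TPO1 was at 1.14. STD1, a regulator of glucose signalling, was at 1.91, the peroxisomal catalase CTA1 at 1.17 and ISA1, an assembly factor for iron-sulfur clusters, at 1.09. On the lower side, YLL056C had only 11 and 16 counts, against 98 counts, at -3.02 (-4.13 to -2.17), and DMO1 had 41 and 30 counts, against 213 counts, at -2.28 (-2.82 to -1.81). OPT2, of the oligopeptide transporter family, was at -1.67, and BNA2, which starts NAD synthesis from tryptophan, at -1.14.

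**Figure D2:**
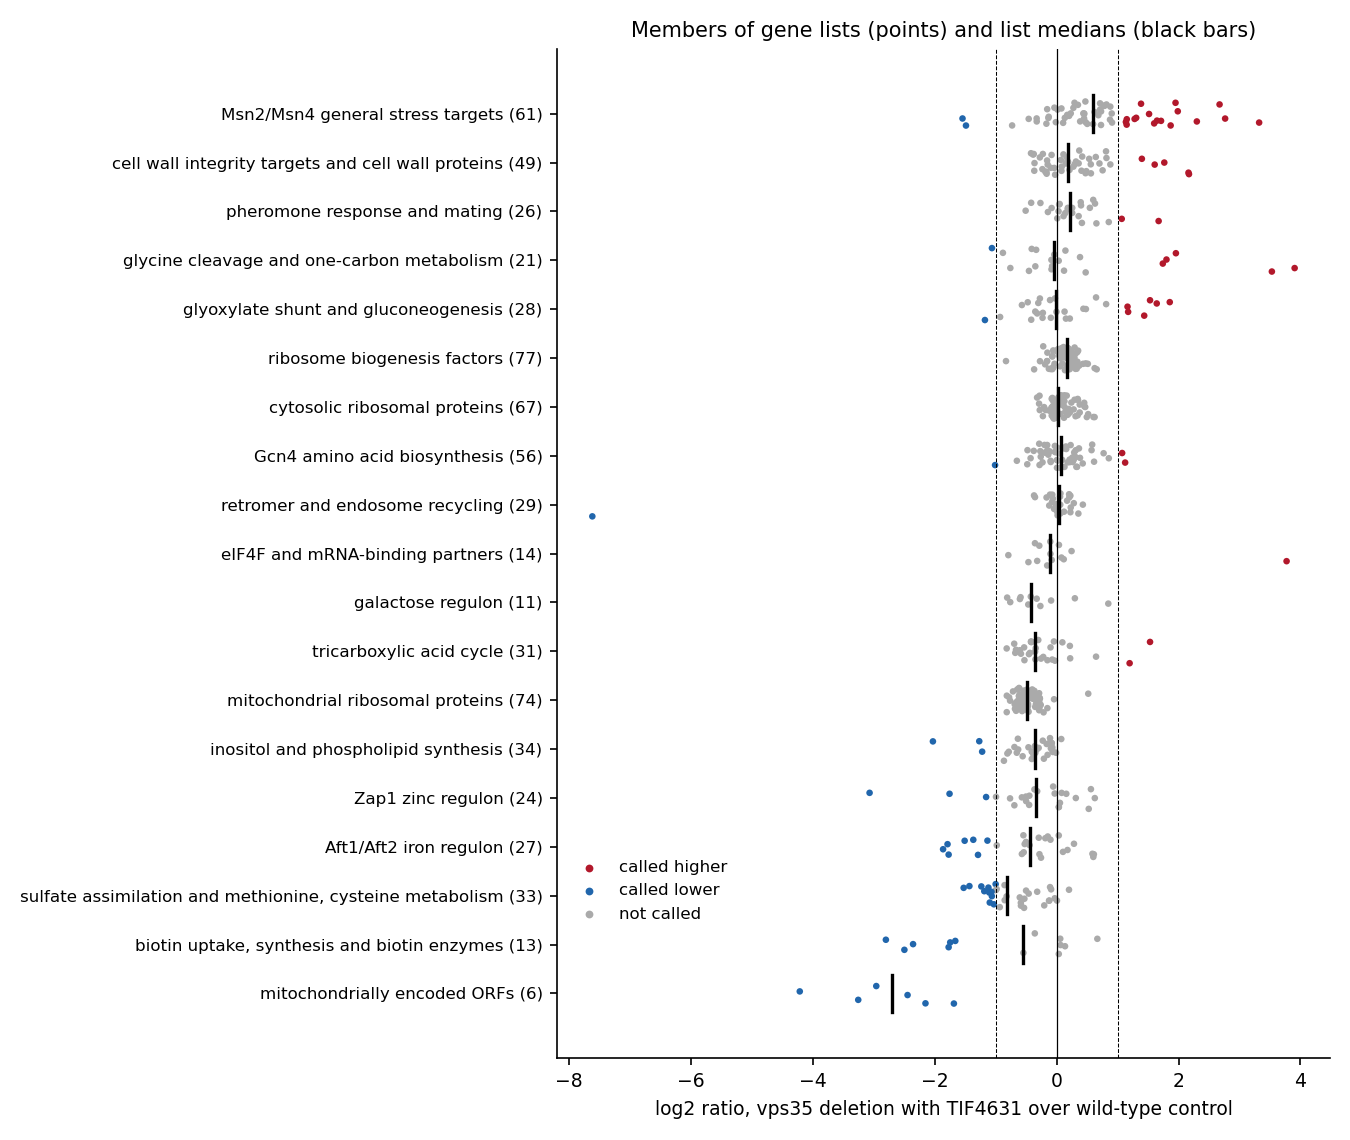
Log2 ratio of the deletion library with TIF4631 over the wild-type control for every measured member of 19 gene lists, with the number of measured members in brackets. Each point is 1 ORF, black bars are list medians, dashed lines mark the rule of size at 1 and -1, and the medians run from 0.60 for stress targets to -2.70 for the mitochondrially encoded ORFs.

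Several genes of zinc and iron uptake were called lower in the deletion library with TIF4631. ZRT1, the high-affinity zinc transporter of the plasma membrane, had 82.6 CPM there and 120 CPM in the deletion control library, against 694 CPM in the wild-type control, a log2 ratio of -3.07 (-3.15 to -2.99). The low-affinity transporter ZRT2 had 36.0 and 68.8 CPM, against 122 CPM, at -1.76. Their activator ZAP1 was at -1.0, just outside the rule of size, and ADH1, the zinc-rich alcohol dehydrogenase, was at 0.04. Of 24 measured genes of the zinc list, 3 were called lower and 0 higher, against 1.62% and 1.42% of all ORFs. Beyond counting error 13 were below 0 and 6 above, against 33.0% of all ORFs in each direction, and the median was -0.34.

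FET3, the multicopper oxidase, had 244 CPM in the deletion library with TIF4631 and 328 CPM in the deletion control library, against 844 CPM in the wild-type control, at -1.79 (-1.84 to -1.74). FTR1, the permease that works with it, had 86.1 and 159 CPM, against 314 CPM, at -1.86 (-1.95 to -1.78). The siderophore transporters ARN1 and ENB1 were at -1.51 and -1.37, and TIS11, which degrades mRNAs of iron-using proteins, at -1.29. In the Aft1 and Aft2 list, 7 of 27 measured genes were called lower and 0 higher, against 1.62% and 1.42% of all ORFs. Beyond counting error 18 were below 0 and 4 above, against 33.0% of all ORFs in each direction, and the median was -0.44. The 7 called lower included VHT1, the biotin importer, which is also counted among the biotin genes below. ARN1 had 8.81 CPM in the deletion library with TIF4631 and 5.80 CPM, the lowest of these values, in the deletion control library, against 25.1 CPM in the wild-type control. The wall mannoproteins FIT2 and FIT3, which hold siderophores, were also lowest in the deletion control library, but they were highest with TIF4631. FIT3 had 105 CPM in the deletion library with TIF4631 and 20.3 CPM in the deletion control library, against 68.9 CPM in the wild-type control, so that its combined ratio was 0.60. FIT2 had 27.8 and 7.12 CPM, against 24.6 CPM, a combined ratio of 0.18 whose interval included 0. FIT2, FIT3 and PHO89 below were named after their values were seen.

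**Figure D3:**
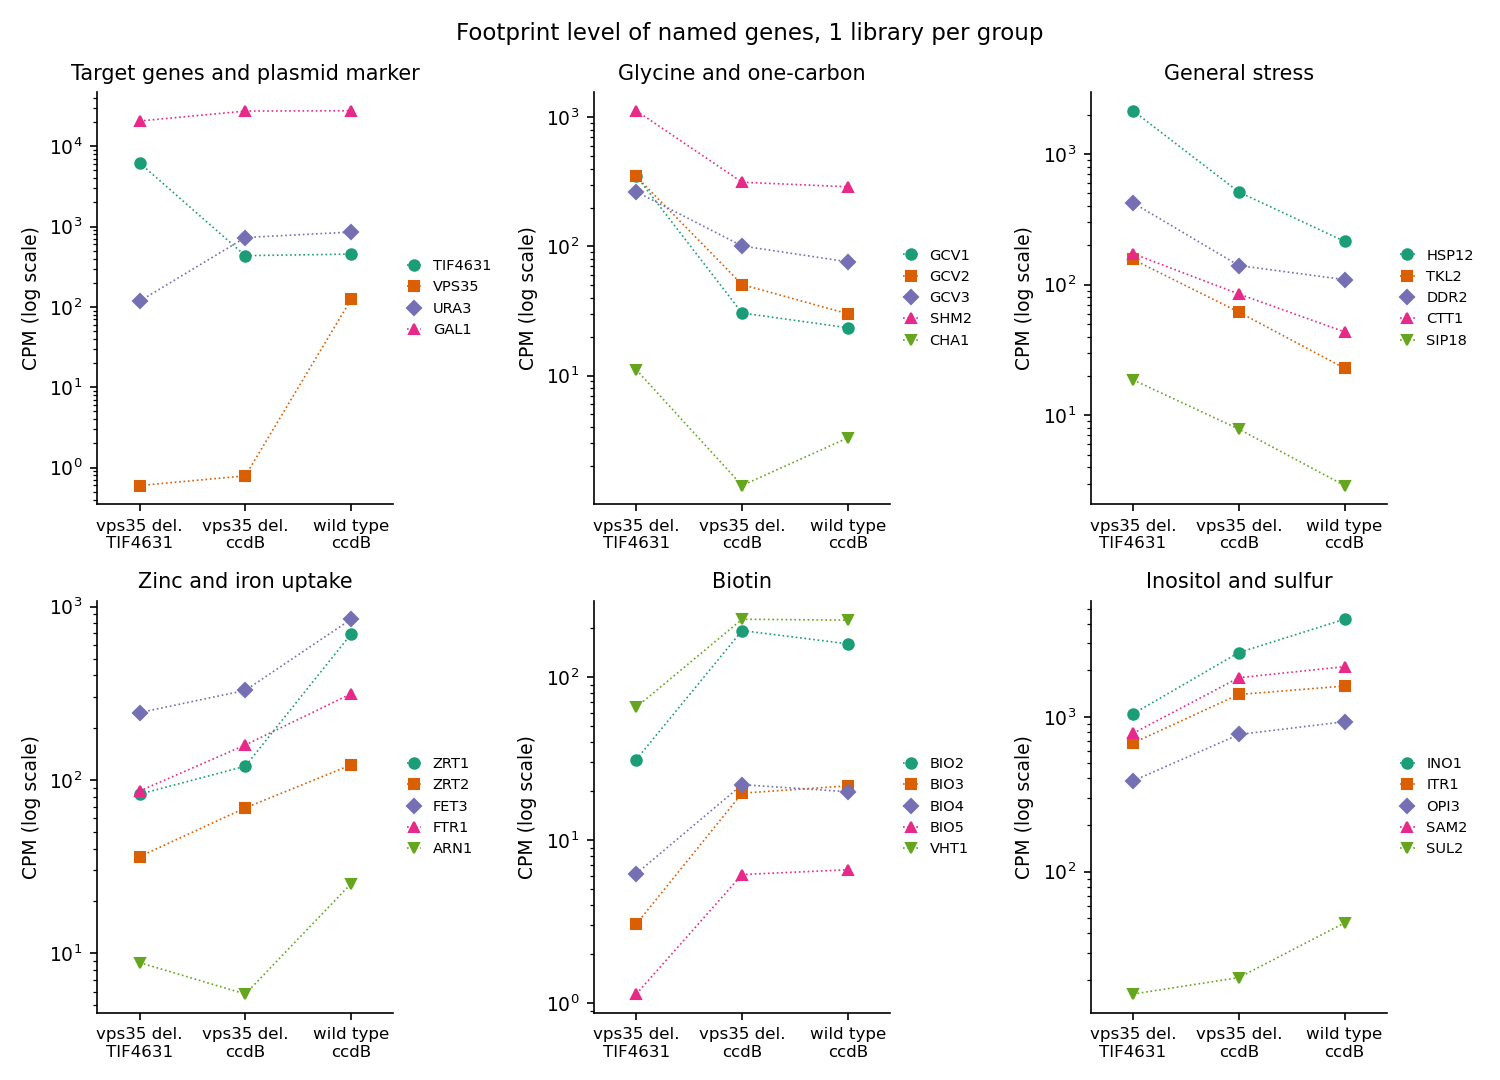
Footprint level in CPM, on log scales, of 29 named genes in the deletion library with TIF4631, the deletion control library and the wild-type control library, from left to right in each panel. Each point is 1 library, dotted lines join points of a gene, and the glycine and stress genes are highest at the left while zinc, iron, inositol and sulfur genes are highest at the right.

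Promoters of ZRT1 and FTR1 are shown over the same positions. The capitals mark the 11-base Zap1 element of ZRT1 and the letters GCACCC, the core of the Aft1 site, in FTR1.
ZRT1, chrVII:20728-20877, plus strand: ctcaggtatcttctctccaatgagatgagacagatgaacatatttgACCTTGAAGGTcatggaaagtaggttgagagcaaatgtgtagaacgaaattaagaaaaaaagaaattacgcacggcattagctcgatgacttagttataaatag
FTR1, chrV:461841-461990, minus strand: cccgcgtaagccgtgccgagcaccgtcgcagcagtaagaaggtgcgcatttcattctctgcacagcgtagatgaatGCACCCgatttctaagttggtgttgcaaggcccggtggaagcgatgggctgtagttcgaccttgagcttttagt
GCACCC, on either strand, stood in 10 of 75 promoters of nuclear ORFs called lower (13.3%), in 2.82% of those called higher and in 4.03% of all promoters past the filter. Over 500 bases before the ORF it stood in 22.7% of those called lower and in 12.7% of those called higher, against 6.98% of all, so that the ORFs called higher were below the share of all in the short window and above it in the long one. The Zap1 element stood in 1 promoter of an ORF called lower, that of ZRT1, and in 11 of all 4987.

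Genes of biotin were lower in the deletion library with TIF4631 but not in the deletion control. BIO2, the iron-sulfur enzyme that closes the biotin ring, had 31.2 CPM in the deletion library with TIF4631 and 193 CPM in the deletion control library, against 160 CPM in the wild-type control, at -2.36 (-2.50 to -2.22). BIO3, BIO4 and BIO5, which lie side by side on chromosome XIV and encode the earlier enzymes and a precursor transporter, were at -2.80, -1.66 and -2.50. BIO3 had 51 and 221 counts, against 379 counts. VHT1, the biotin importer, had 65.4 and 226 CPM, against 223 CPM, at -1.77 (-1.87 to -1.68). Of 13 measured genes in the biotin list, these 5 and YJR154W were called lower and none higher, against 1.62% and 1.42% of all ORFs. Acetyl-CoA carboxylase ACC1, which carries biotin, was at -0.36 and the ligase BPL1, which attaches it, at -0.55, both below 0 but not called. The transcription factor VHR2 was at 0.67.

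Genes of inositol and phospholipid synthesis were lower, and INO1 was the most abundant of the ORFs called lower. INO1, inositol phosphate synthase, had 1046 CPM in the deletion library with TIF4631 and 2602 CPM in the deletion control library, against 4272 CPM in the wild-type control, 4.09-fold lower at -2.03 (-2.05 to -2.01). INO1 (YJL153C, chromosome X, 134332 to 135933) is the gene next to VPS35 and read in the same direction. For the deletion control over the wild-type control, at -0.72, a local effect of the deletion allele cannot be told apart from other effects. Both deletion libraries carry that allele, and between them, with TIF4631 over control, INO1 was at -1.31 (-1.34 to -1.29). The inositol transporter ITR1, on chromosome IV, was at -1.22 with 678 and 1395 CPM, against 1581 CPM, and OPI3, a methyltransferase of phosphatidylcholine synthesis, at -1.27 with 385 and 769 CPM, against 930 CPM. CDS1, PSD1 and the activator INO2 were at -0.87, -0.81 and -0.79 and not called. Among the 34 measured genes of the list, 23 were below 0 beyond counting error and 0 above, against 33.0% of all ORFs in each direction.

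Sulfate assimilation and methionine genes had the most lower calls of any list. Of 33 measured genes, 11 were called lower and 0 higher, against 1.62% and 1.42% of all ORFs. Beyond counting error 28 were below 0 and 1 above, against 33.0% of all ORFs in each direction, and the median was -0.82. SAM2, an S-adenosylmethionine synthetase, had 782 CPM in the deletion library with TIF4631 and 1790 CPM in the deletion control library, against 2110 CPM in the wild-type control, at -1.43 (-1.46 to -1.40). The sulfate permeases SUL1 and SUL2 were at -1.0 and -1.53, the sulfate-activating enzymes MET3 and MET14 at -1.11 and -1.10, the reductase MET16 at -1.03, the homoserine acetyltransferase MET2 at -1.24, and the permeases SAM3 and MMP1 at -1.06 and -1.19. Methionine synthase MET6, with 2560 and 4348 CPM, against 4521 CPM, was at -0.82 and missed the rule of size. The cysteine gene CYS3 was at -0.13 and STR2 at 0.20.

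Promoters of INO1, MET14 and MET16 are shown because their capitals mark the sites of the activators named for these pathways. In INO1 they mark the Ino2/Ino4 element on both strands, and in the MET genes the letters CACGTG of the Cbf1 site.
INO1, chrX:136034-136183, minus strand: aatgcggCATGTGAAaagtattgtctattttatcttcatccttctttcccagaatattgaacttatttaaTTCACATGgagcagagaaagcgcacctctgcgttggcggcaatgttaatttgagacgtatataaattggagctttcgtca
MET14, chrXI:439486-439635, minus strand: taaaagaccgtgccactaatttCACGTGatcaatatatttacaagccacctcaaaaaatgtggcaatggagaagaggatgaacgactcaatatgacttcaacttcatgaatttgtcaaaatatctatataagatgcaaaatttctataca
MET16, chrXVI:877733-877882, minus strand: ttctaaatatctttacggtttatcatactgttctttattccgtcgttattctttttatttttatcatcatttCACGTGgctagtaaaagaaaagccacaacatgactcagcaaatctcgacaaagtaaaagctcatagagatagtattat
The Ino2/Ino4 element stood in 3 of 75 promoters of nuclear ORFs called lower (4.0%), in none of the 71 called higher and in 0.782% of all. CACGTG stood in 3 of 75 promoters of ORFs called lower (4.0%), in none of those called higher and in 3.05% of all. Over 500 bases the Ino2/Ino4 element stood in 9.33% of those called lower, in none of those called higher and in 1.54% of all, and CACGTG in 18.7%, 5.63% and 6.32% in the same order. In that window AGGGG stood in 56.3% of promoters of ORFs called higher and 36.0% of those called lower, against 34.5% of all, and TGACTC in 14.1% and 21.3%, against 13.4%. The longer window was chosen after the data were seen.

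**Figure D4:**
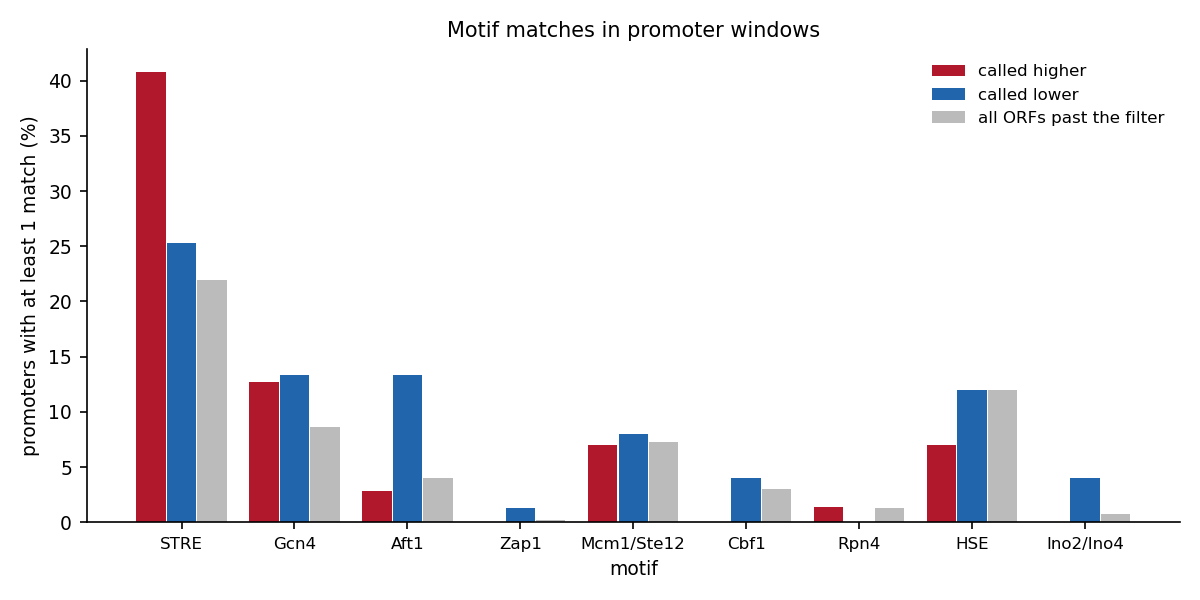
Share of promoters with at least 1 match to each of 9 motifs, in percent, for ORFs called higher (red), nuclear ORFs called lower (blue) and all nuclear ORFs past the filter (grey), over a window from 250 bases before to 50 after the ORF start. The stress response element (STRE) stands at 40.8% among ORFs called higher, against 21.9% of all. Among those called lower the Aft1 core stands at 13.3%, against 4.03% of all, and the Gcn4 letters also at 13.3%, against 8.64%.

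ORFs of the mitochondrial genome were much lower in the deletion library with TIF4631. All 6 ORFs of the mitochondrial genome past the filter were called lower, with a median of -2.70, while the medians of the 16 nuclear chromosomes lay between -0.07 and 0.06. OLI1, a subunit of the ATP synthase ring, had 5 counts in the deletion library with TIF4631 and 10 in the deletion control library, against 108 in the wild-type control, at -4.22 (-6.01 to -3.09). ATP6 had 38 and 57 counts, against 316, and COX3, a subunit of cytochrome c oxidase, had 43 and 44 counts, against 250. Both deletion libraries were well below the wild-type control, but they were not equal to each other once depth was scaled. ATP6 stood at 2.28 CPM in the deletion library with TIF4631 and 5.01 CPM in the deletion control library, against 17.9 CPM in the wild-type control, while AI1 stood at 7.19 and 3.16 CPM, against 23.2 CPM. The log2 ratio of the deletion library with TIF4631 over the deletion control was -1.13 (-1.77 to -0.52) for ATP6 and 1.18 (0.64 to 1.76) for AI1, and the other 4 had intervals that included 0. The 4 mitochondrial ORFs below the filter held 4 and 12 counts, against 123, in sum. These ORFs made up only 0.0018% of all counts in the deletion library with TIF4631 and 0.0020% in the deletion control library, against 0.0099% in the wild-type control. AI1 and AI2 share exons with the ORF of COX1 and with each other, so their counts cannot be assigned to 1 gene, and COX2 overlaps another annotated ORF.

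Nuclear genes of the mitochondrial ribosome shifted together by a small amount. None of 74 passed the rule of size, and 72 were below 0 beyond counting error, against 33.0% of all ORFs. The list median was -0.48. RSM27 had 25.5 CPM in the deletion library with TIF4631 and 43.6 CPM in the deletion control library, against 45.1 CPM in the wild-type control, at -0.82, and MRP7 was likewise at -0.82. The 1 member above 0 was MRP8, at 0.52. For these nuclear genes the deletion control library lay close to the wild-type control, with a median of -0.03 between them, whereas for the ORFs of the mitochondrial genome that median was -2.41. The 31 genes of the tricarboxylic acid cycle had a median of -0.35, with the citrate synthase CIT1 at -0.82 and, called higher, MDH2 and the malic enzyme MAE1 at 1.20. Among 47 nuclear respiratory genes CYC1, iso-1-cytochrome c, was called lower at -1.05 and the external NADH dehydrogenase NDE2 higher at 1.02, with a median of -0.24. YHB1, the haem-containing nitric oxide dioxygenase, had 713 and 2023 CPM, against 2897 CPM, at -2.02 (-2.05 to -1.99).

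With the deletion control library set between the other 2, each combined ratio splits into 2 values. The deletion control over the wild-type control and the deletion with TIF4631 over its control share a library and sum to the combined ratio, so they are values side by side and not separate evidence. For HSP12 they were 1.26 and 2.07, for TKL2 1.43 and 1.34, for NCE103 0.89 and 0.89 and for CWP1 1.22 and 0.39. For GCV1 they were 0.38 and 3.53, for SHM2 0.12 and 1.84, for BIO2 0.27 and -2.63 and for URA3 -0.22 and -2.63. The zinc transporter ZRT1 had -2.53 and -0.54, FET3 -1.36 and -0.43, HSP30 -1.64 and 0.10, and INO1 -0.72 and -1.31. For GCV1 and SHM2 the larger value was thus that between the 2 deletion libraries. For ZRT1 and FET3 it was that between the 2 control libraries. With 1 culture per library, effects of the plasmid or the deletion cannot be told apart from differences between cultures. For BIO2 and HSP30 the smaller value had the opposite sign, so the larger one exceeded the combined ratio. Opposite values cancelled for FIT3, at -1.76 and 2.36, and for the phosphate transporter PHO89, at 1.22 and -1.52, whose combined ratio was -0.29.

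**Figure D5:**
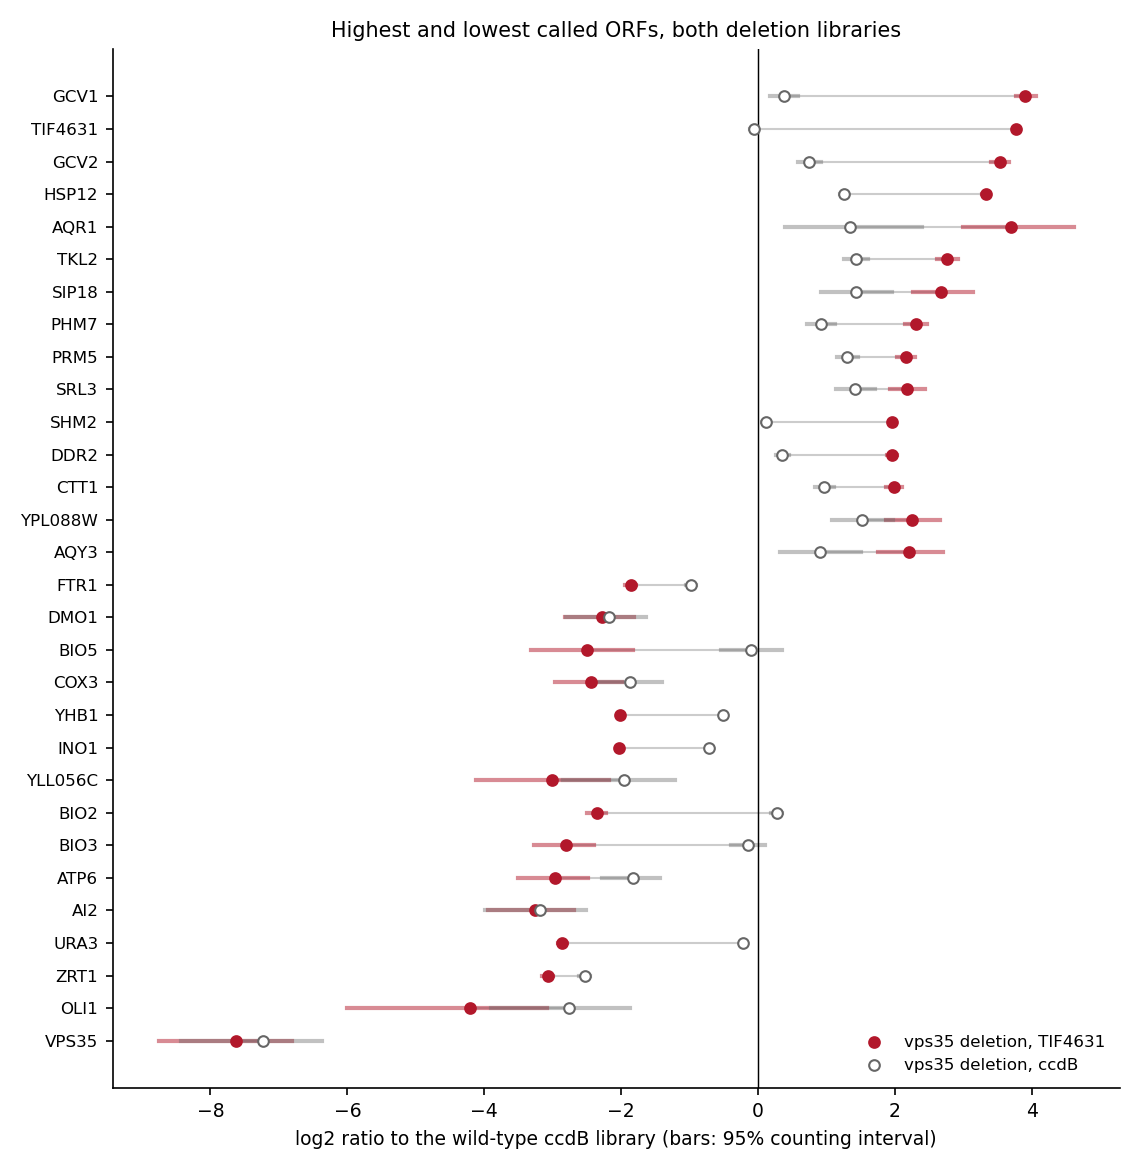
Log2 ratio to the wild-type control library of the 15 highest and 15 lowest called ORFs by the interval bound nearest 0, for the deletion library with TIF4631 (red) and the deletion control library (open circles). Thick bars are 95% counting intervals, and GCV1 and BIO2 show open circles near 0, whereas for ZRT1 and VPS35 the circles lie close together.

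A minority of called ORFs stood beside an ORF called the same way, though a larger share than among all ORFs. Of the 71 called higher, 10 (14.1%) had a direct neighbour that was also called higher, against 2.26% of all ORFs past the filter. Of the 81 called lower, 13 (16.0%) had a neighbour called lower, against 2.32% of all. Of those 13, AI1 and AI2 share exons, and VPS35, the deleted gene, stands beside INO1. Without VPS35 and the ORFs of the mitochondrial genome, a choice made after the data were seen, 9 of 74 called lower (12.2%) had such a neighbour, against 2.22% of all. Of the 12 such pairs, 5 were divergent and so share 1 intergenic region, among them PRM5 with HIS5 and SIP18 with PAI3 on the higher side, and BIO3 with BIO4 on the lower side. Tandem pairs included FMP45 with HBT1 on the higher side and FRE7, a copper-responsive reductase, with ZPS1 on the lower side.

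Length of the ORF showed little relation to the log2 ratio, with a Spearman rho of 0.02 over 4990 nuclear ORFs and medians between -0.01 and 0.03 in the 5 length classes. Level, taken from the deposited RPKM of the deletion control library, which is on neither side of the ratio, gave a rho of -0.09 and class medians between 0.06 and -0.05. The lowest of the 5 level classes held 26 of the ORFs called higher and 32 of those called lower, where counts are fewest.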

How the data were processed

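Ribosome-protected fragments were sequenced from 4 libraries of Y7092 yeast. Levels and ratios in the Results come from 3 of them. The left-out library entered the filter, the scaling and the flagged results only. The authors deposited raw counts, 1 whole number of reads for each ORF, per the file headers. The deposited RPKM values were scaled by the authors to ORF length and dataset reads, per the file headers. The length behind them was 15 nt below the gene length, within 0.01 nt, for 96.0% to 96.1% of ORFs with at least 50 counts. The submitters' processing notes name the sacCer3 build, Bowtie2, cutadapt 1.3 and CASAVA. How reads with several matches or overlapping ORFs were counted is not given in the sources used here, and 594 of 6021 annotated protein-coding genes, among them duplicated genes, were not analysed here.

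Scaling was by TMM of edgeR 4.0.16 over the 4 libraries, with factors of 1.02, 1.01 and 0.997 for the deletion library with TIF4631, the deletion control and the wild-type control. Log2 ratios used scaled counts with 0.5 added, and 95% conditional binomial (Clopper-Pearson) intervals. These cover counting error only and hold no spread between cultures. Amplified reads that carry no molecular identifier may be copies of 1 molecule, which the intervals do not account for. A count of 0 allows up to 3 counts. With 1 library per side no test was possible and no p-value was computed. The calling code was tested on simulated data. The text names TIF4631, VPS35, URA3 and GAL genes, the 15 highest and 15 lowest called ORFs by interval bound, and, from 52 gene lists, up to 6 called members of each by the same bound, with 1 ORF not reported here. Other members named show where a list did not move together or give roles in a pathway, and were chosen with their values known. The comparison, the members, the lists and the motifs were chosen with earlier results of these data known. Promoters and coordinates came from the R64 reference, the same assembly as sacCer3, and 5438 of 5441 ORFs matched a locus tag. Alternatives were other scalings (DESeq2 1.42.0 size factors among them), filters, pseudocounts and a stricter call. Software was R 4.3.3 and Python 3.11.15 with scipy 1.17.1, numpy 2.4.6, matplotlib 3.10.9 and pandas 2.3.3.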

Additional observations from a re-analysis of the deposited data

Results flagged for a closer look

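Some ORFs past the rule of size stood the other way in the library that the comparison left out, the one labelled wild type with TIF4631. In that library 12 ORFs called lower above were at least 1 log2 unit higher than in the wild-type control. The biotin genes BIO5, BIO3, BIO4 and BIO2 stood at log2 ratios of 5.71, 4.52, 4.29 and 2.55 there, against -2.50, -2.80, -1.66 and -2.36 in the deletion library with TIF4631, and the importer VHT1 at 2.39, against -1.77. BIO5 had 6060 counts in the left-out library and 19 in the deletion library with TIF4631, against 116 in the wild-type control. ZPS1 stood at 4.43 and YJR154W at 4.20, against -1.16 and -1.75. ZPS1 had 29 and 28 counts in the deletion libraries with and without TIF4631, and 69 in the wild-type control. It passed the filter only through its 1489 counts in the left-out library, so its place here was partly set by the filter. INO1 stood at 1.68, ZRT1 at 1.17, ADH5 at 1.17, COX26 at 1.01 and YEL073C at 1.33, against -2.03, -3.07, -1.13, -1.52 and -1.52. These are values of 1 library each, and no test of their difference was possible.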

How the results depend on the processing

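The 71 ORFs called higher and 81 called lower were nearly the same under every scaling: all 71 and at least 74 of the 81 remained, and of the ORFs named in the report LEU1, SUL1 and MET16 left the rule of size with total counts, at -0.98 and -0.97 for LEU1 and SUL1 and just inside -1 for MET16. SUL1 also left it with a pseudocount of 5, at -0.97, and with no filter, just inside -1. With a filter of 1000 counts 47 were called higher and 55 lower, all among the original calls, because fewer ORFs were counted. With no filter 95 and 115 were called. Requiring the whole interval beyond 1 left 56 higher and 44 lower. Without ORFs that overlap another annotated gene, an alternative chosen after seeing the data, 70 and 76 remained. Total counts moved the median of all ORFs by 0.03. No median of a list or chromosome that was at least 0.1 from 0 changed sign under any scaling, filter or pseudocount tried. No paired analysis was possible because each group has 1 library. Depth limits the ORFs of the mitochondrial genome and others with few counts, such as AQR1.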
